A study of Mus musculus with 10 samples.

Results

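RBPJ peaks were examined at 10 genes of the YAP and TEAD branch of the Hippo pathway in mouse brain pericytes, out of 21938 protein-coding genes. The genes were taken by name and were the coactivator genes Yap1 and Wwtr1 (TAZ), the DNA-binding factor genes Tead1, Tead2, Tead3 and Tead4, the kinase genes Lats1 and Lats2, and the matricellular target genes Ccn1 (Cyr61) and Ccn2 (Ctgf). A peak was given to a gene when its centre lay in the gene body or in the regulatory domain of the gene. The domain reached from 5 kb upstream to 1 kb downstream of the 5′ end and was extended to the basal domains of the neighbouring genes, by at most 1 Mb. By this rule, 22 of the 11094 peaks belonged to the 10 genes.

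The series consisted of chromatin immunoprecipitation and sequencing (ChIP-seq) of RD1 cells, which are labelled as mouse brain pericytes, the vessel wall cells of capillaries, and which received no treatment. It held 10 samples, with 2 replicates each of an RBPJ, an H3K4me1, an H3K4me3 and a total H3 precipitation and of the input. RBPJ was profiled to find the sites it occupies, and the results below rest on 1 peak list, present in identical copies for RBPJ replicates 1 and 2. The histone and input samples (8) were not analysed here. The genotype of RD1 is not given in the labels. The study describes the cells used for ChIP-seq as primary brain pericytes in culture, and the only such culture in its methods came from adult mice homozygous for a floxed Rbpj allele, without the name RD1. No group of the series lacks RBPJ, and the peaks hold no expression data from which the cell type could be checked against its markers.

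YAP and TAZ are coactivators without a DNA-binding domain of their own, and they reach the genome mainly through the TEAD factors. LATS kinases phosphorylate YAP and TAZ, which keeps them out of the nucleus, and Ccn1 and Ccn2 are among the best known genes that YAP, TAZ and TEAD switch on. RBPJ is the DNA-binding factor of the Notch pathway. It activates genes with the Notch intracellular domain and can repress them together with corepressors when Notch is inactive.

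Each peak in the list had a chromosome, a start and an end, with no height, summit, score or read count, and the depth of the libraries was not available here. A gene either had a peak in the list or had none, and the lack of one does not show that RBPJ was absent. Since the copies were identical, no spread between replicates could be calculated and no test was made. The 95% exact (Clopper-Pearson) binomial intervals given with shares cover counting error only.

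The sequences of 6 of the 22 peaks are shown first, because these were the peaks over 1 kb from a transcript start in which the core letters of the RBPJ recognition sequence lay in the central 200 bp. Letters were searched on both strands. TGGGAA, which reads TTCCCA on the other strand, stands for the RBPJ core. GGAATG, which reads CATTCC on the other strand, stands for TEAD. TGANTCA stands for AP-1, a factor that is often found at the same enhancers as TEAD. In the sequences that follow, capitals mark every match to one of these. All are from GRCm38 and run 5′ to 3′ on the strand of the gene.

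Tead1 intron peak, chr7:112696645-112696940, plus strand: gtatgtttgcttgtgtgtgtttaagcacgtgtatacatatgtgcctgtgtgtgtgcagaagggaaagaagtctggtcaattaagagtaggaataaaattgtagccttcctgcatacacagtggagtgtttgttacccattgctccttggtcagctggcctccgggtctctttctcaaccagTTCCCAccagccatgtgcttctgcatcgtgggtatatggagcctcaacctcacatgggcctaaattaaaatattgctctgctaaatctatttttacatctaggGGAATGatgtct

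Tead4 intron peak, chr6:128285832-128286121, minus strand: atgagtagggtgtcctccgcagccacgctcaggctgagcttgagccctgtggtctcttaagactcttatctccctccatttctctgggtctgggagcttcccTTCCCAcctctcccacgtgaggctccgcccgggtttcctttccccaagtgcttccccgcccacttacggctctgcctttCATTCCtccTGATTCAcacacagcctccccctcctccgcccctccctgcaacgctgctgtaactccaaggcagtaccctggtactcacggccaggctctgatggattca

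Wwtr1 upstream peak, chr3:57637629-57637859, minus strand: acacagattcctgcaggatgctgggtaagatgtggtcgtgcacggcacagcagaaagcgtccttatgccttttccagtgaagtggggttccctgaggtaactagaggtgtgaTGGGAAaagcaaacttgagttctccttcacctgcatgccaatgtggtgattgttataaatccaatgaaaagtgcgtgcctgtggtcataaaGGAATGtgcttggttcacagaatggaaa

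Lats2 upstream peak, central bases, chr14:57760378-57760677, minus strand: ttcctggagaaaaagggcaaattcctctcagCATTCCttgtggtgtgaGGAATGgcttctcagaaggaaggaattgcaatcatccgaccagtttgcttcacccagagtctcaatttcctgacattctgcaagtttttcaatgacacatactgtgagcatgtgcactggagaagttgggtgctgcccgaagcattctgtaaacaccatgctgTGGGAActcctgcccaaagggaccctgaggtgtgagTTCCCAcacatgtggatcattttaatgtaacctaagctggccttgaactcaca

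Ccn1 downstream peak, central bases, chr3:145632754-145633053, minus strand: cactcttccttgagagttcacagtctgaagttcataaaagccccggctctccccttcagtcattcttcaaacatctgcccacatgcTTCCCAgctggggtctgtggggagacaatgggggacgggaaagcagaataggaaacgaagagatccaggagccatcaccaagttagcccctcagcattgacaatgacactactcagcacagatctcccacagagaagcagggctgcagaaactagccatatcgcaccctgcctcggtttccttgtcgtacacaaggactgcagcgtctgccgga

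Ccn2 downstream peak, central bases, chr10:24599844-24600143, plus strand: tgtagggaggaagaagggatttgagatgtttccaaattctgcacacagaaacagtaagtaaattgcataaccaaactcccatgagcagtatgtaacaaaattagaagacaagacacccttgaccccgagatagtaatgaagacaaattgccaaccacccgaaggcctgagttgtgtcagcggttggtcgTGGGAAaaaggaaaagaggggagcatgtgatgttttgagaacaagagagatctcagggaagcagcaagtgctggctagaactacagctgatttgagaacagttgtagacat

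The promoter sequences of Yap1 and Wwtr1, the coactivator genes, are shown as examples of promoters that lay wholly inside a peak and held the TEAD letters, and that of Ccn1 because it is a TEAD target promoter in which no base lay inside a peak. These are the 250 bases upstream of the RefSeq start (GRCm38.p6), and each held 1 match to the TEAD letters, by which they were chosen, and none to the RBPJ core. Of the other promoters wholly inside a peak, that of Lats1 held no TEAD match and 1 of Lats2 held 1.

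Yap1 promoter, chr9:8004597-8004846, minus strand: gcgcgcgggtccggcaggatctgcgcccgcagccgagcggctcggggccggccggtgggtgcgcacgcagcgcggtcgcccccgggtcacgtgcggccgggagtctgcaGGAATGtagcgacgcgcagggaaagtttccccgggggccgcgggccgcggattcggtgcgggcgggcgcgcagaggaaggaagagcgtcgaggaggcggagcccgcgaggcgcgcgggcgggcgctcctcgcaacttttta

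Wwtr1 promoter, chr3:57575911-57576160, minus strand: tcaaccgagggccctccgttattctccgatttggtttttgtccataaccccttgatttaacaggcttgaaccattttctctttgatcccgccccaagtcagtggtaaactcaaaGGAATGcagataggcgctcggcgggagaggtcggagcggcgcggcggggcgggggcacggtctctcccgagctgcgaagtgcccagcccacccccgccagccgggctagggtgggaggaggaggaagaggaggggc

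Ccn1 promoter, chr3:145649986-145650235, minus strand: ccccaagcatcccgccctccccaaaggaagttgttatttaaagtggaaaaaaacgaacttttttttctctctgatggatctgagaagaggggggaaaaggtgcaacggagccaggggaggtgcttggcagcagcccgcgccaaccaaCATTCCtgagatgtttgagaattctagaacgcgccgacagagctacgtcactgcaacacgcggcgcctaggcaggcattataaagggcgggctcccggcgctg

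RBPJ peaks were found at 8 of the 10 genes, against 46.7% of all protein-coding genes under the same rule (10254 of 21938, interval 46.1 to 47.4%). Ccn2 had the most, with 6 peaks, followed by Wwtr1 and Ccn1 with 4 each, Tead4 with 3 and Lats2 with 2. This order depends on the domain, since Ccn1 had 4 peaks but Ccn2 had 2 with an extension of at most 100 kb and 3 when each peak was given to its nearest start. Yap1, Tead1 and Lats1 had 1 peak each, and Tead2 and Tead3 had none. Both coactivator genes, both kinase genes and both target genes therefore had a peak, as did 2 of the 4 TEAD genes. The median was 1.5 peaks per gene over the 10 genes and 0 over all genes. At least 4 peaks were found at 4.05% of all genes and at 3 of the 10, and at least 6 at 1.3% of all genes and at Ccn2 alone among the 10.

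Genes with a long body or domain can collect more peaks, and the 10 genes differed widely in length. The body and domain together spanned from 25.3 kb at Tead2 to 520 kb at Tead1. If peaks had been spread evenly along each chromosome, these spans would have held 7.09 peaks, where 22 were found. Without Ccn2, which has a span of 487 kb, the numbers were 4.65 and 16. Peaks were not spread evenly, since 49.5% of all 11094 lay within 1 kb of a start. An even spread is therefore not what genes of such spans usually hold. The mean over all genes was 0.415 peaks at spans of 20 to 50 kb and 0.879 at 100 to 200 kb. It was 1.36 at 200 to 500 kb and 1.57 above 500 kb. How far span accounts for the 22 peaks was not tested.

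**Figure D1:**
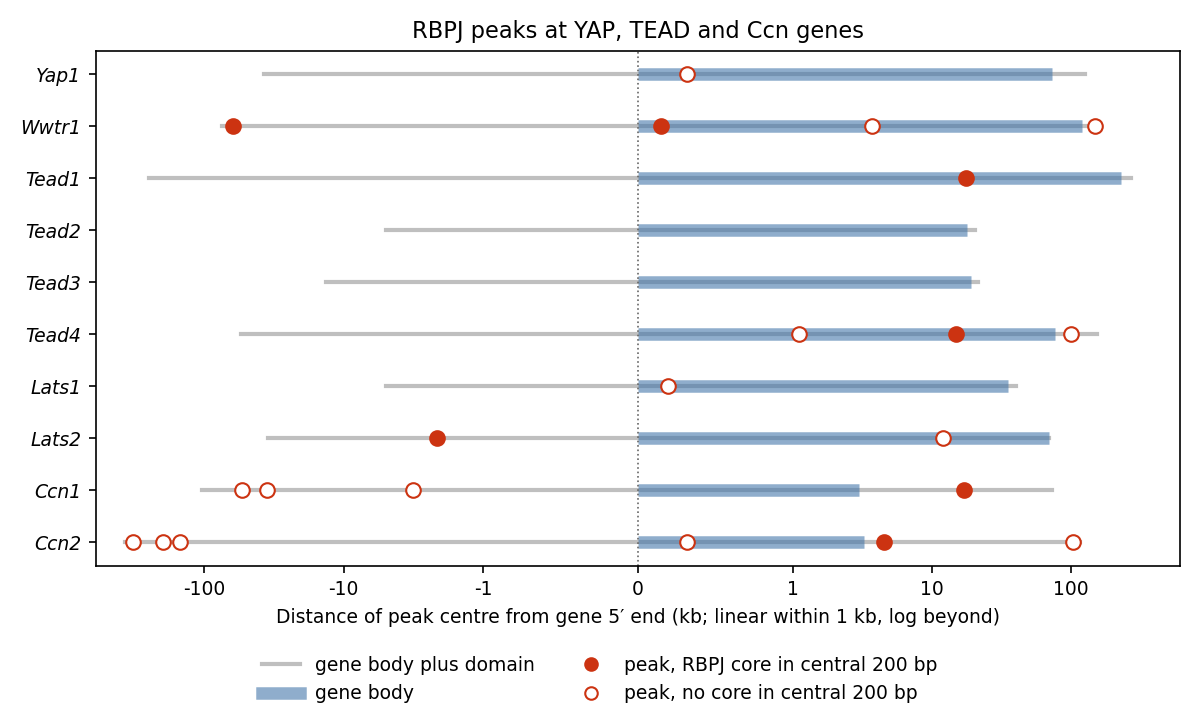
Position of the 22 RBPJ peaks at the 10 genes, 1 row per gene. The horizontal axis is the distance of the peak centre from the gene 5′ end in kb, positive in the direction of transcription, linear within 1 kb and logarithmic beyond. Blue bars are gene bodies, grey lines the body plus domain, and filled circles are peaks with the RBPJ core letters in the central 200 bp. Filled circles are seen at 6 genes, Wwtr1 holding 2 of the 7, and the rows of Tead2 and Tead3 are empty.

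A promoter peak, meaning a peak centre within 1 kb of a protein-coding transcript start, was found at 5 of the 10 genes, namely Yap1, Wwtr1, Lats1, Lats2 and Ccn2. Among all genes the share was 27.6% (6044 of 21938, interval 27 to 28.1%). Just outside this limit was Tead4, with a peak centre 1027 bp from its nearest start. That peak was 2382 bp wide, the widest of the 22, and its interval covered the start, so that Tead4 was counted when distance was taken from the peak edge. In all, 6 of the 22 peaks covered a start of the gene to which they were given, a count that was not made for all peaks.

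Yap1 encodes the main transcriptional coactivator restrained by the Hippo kinases. The gene lies on the minus strand of chromosome 9 (7931999 to 8004596), and its single peak (8003553 to 8005005, 1453 bp) was centred 317 bp downstream of the 5′ end, in a coding exon. GC content, given here for the central 200 bp of a peak, was 76%. No TGGGAA was found in the whole interval. One TEAD match, 453 bp from the centre, is the one in capitals in the Yap1 promoter above. The next peak upstream of this gene was -1200 kb away, and 10 peaks in all lay within 5 Mb of Yap1, against a median of 51.0 over all genes.

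Wwtr1 encodes TAZ, the paralogue of YAP. The gene (chromosome 3, 57455649 to 57575910, minus strand) had 4 peaks with widths of 231 to 1312 bp. The widest covered the transcript start, with its centre 147 bp downstream of the 5′ end in a coding exon. It held TGGGAA at -79 bp from the centre (on the plus strand of the build) and a second match near its edge. Another peak of 943 bp lay in an intron at 3.71 kb and held 2 core matches outside the central window. The 2 remaining peaks were distant. That at -61.8 kb, whose sequence is given above, had TGGGAA almost at its centre. GGAATG lay at -93 bp from the centre on the plus strand of the build, which is downstream of TGGGAA in the direction of the gene. This peak lay in an exon of the noncoding gene Gm43437, 13971 bp from the nearest protein-coding start, that of Commd2. The other, at 147 kb, lay beyond the 3′ end in an intron of Tm4sf4, 3774 bp from the Tm4sf4 start, and could be given to either gene.

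The TEAD genes encode the factors that bind DNA for YAP and TAZ, and these 4 genes held 4 peaks in all. Tead1 (chromosome 7, 112679318 to 112906807, plus strand) had 1 narrow peak of 296 bp in an intron, 17.5 kb downstream of the 5′ end and 5094 bp from an alternative start at 112691698. Its core match read GTGGGAA on the minus strand, the longer form of the RBPJ letters, and lay 34 bp from the peak centre. A TEAD match lay at the edge, 137 bp from the centre.

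Tead4 (chromosome 6, 128224288 to 128300823, minus strand) had 3 peaks. Besides the wide peak at 1.11 kb, which held 3 core matches and 5 TEAD matches but none of them in its central 200 bp, there was a narrow intron peak of 290 bp at 14.8 kb. In the latter, GTGGGAA lay 37 bp from the centre on one side, and GGAATG and TGANTCA lay on the other side with 3 bp between them. Only this peak among the 22 had matches to all 3 kinds of letters in its central 200 bp. The third Tead4 peak lay between genes at 100 kb, was 720 bp wide and held 3 core matches, all outside the central window. One of these shared 4 bases with a TEAD match. All 3 Tead4 peaks also lay in the domain of Tspan9, whose start was the nearest to the intergenic one, at 57210 bp.

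Tead2 and Tead3 had no peak. The nearest peak to Tead2 (chromosome 7, 45215753 to 45233644) was centred at -86.6 kb, 371 bp from a start of the ribosomal protein gene Rpl13a. That nearest to Tead3 (chromosome 17, 28331671 to 28350817) lay 22 kb downstream of the 5′ end, beyond the end of the gene, 207 bp from a start of Rpl10a. The latter peak (28327660 to 28329948) ran over the edge of the Tead3 domain, so that Tead3 was counted when any overlap of the interval was accepted. The RefSeq promoter of Tead2 and 2 of the 3 of Tead3 held TGGGAA, although no base of any of them lay inside a peak.

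Chromosomes and spans differed among the TEAD genes. Chromosome 7, which carries Tead1 and Tead2, held 146 peaks, or 1.03 per Mb, and 10.7% of its 2023 genes had a peak. On the chromosomes of the other 8 genes this share ran from 48.8% on chromosome 14 to 58.9% on chromosome 3. Within 5 Mb, 9 peaks lay around Tead2 and 6 around Tead1, but 128 around Tead3. An even spread along the chromosome would have given 0.0261 peaks at Tead2 and 0.212 at Tead3, both below 1. Of the 4711 genes with a span of 20 to 50 kb, which include Tead2, Tead3 and Lats1, 33.7% had a peak. The other 7 genes, all with a peak, lie in longer classes, in which 51.8% (100 to 200 kb), 61.2% (200 to 500 kb) and 61.3% (over 500 kb) of genes had one. The part of chromosome and span in the lack of peaks was not tested.

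Lats1 and Lats2 encode the kinases that inactivate YAP and TAZ, and Lats2 is itself a known YAP target. Lats1 (chromosome 10, 7681214 to 7716460, plus strand) had a peak of 1153 bp at its start, centred 193 bp downstream of the 5′ end in an untranslated exon. It was the most GC-rich of the 22 peaks, at 80%, and held 2 core matches, 315 and 476 bp from the centre. The domain of Pcmt1 also contained this peak. No TEAD match was found in it.

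Lats2 (chromosome 14, 57689662 to 57758388, minus strand) had 2 peaks. The peak of 1695 bp at 12 kb inside the gene was centred at -301 bp from an internal start (57746123), which RefSeq also lists, and it contained the RefSeq promoter of that start completely. It counted as a promoter peak only through this start, and it also lay in the span of the readthrough gene Gm49361. The narrow peak of 358 bp was centred at -2.14 kb, between genes and in the span of no other protein-coding gene. Its sequence above shows 2 core matches that face each other across 30 bp, both of the form GTGGGAA, and 2 TEAD matches with 11 bp between them. No other peak among the 22 held 2 core matches facing each other within 30 bp.

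Ccn1 and Ccn2 encode secreted matricellular proteins that are widely used as readouts of YAP activity. Ccn1 is a short gene of 3.01 kb (chromosome 3, 145646976 to 145649981, minus strand) with 4 peaks, all of them outside the gene body. Upstream peaks were centred at -3.19 kb, -35.2 kb and -53.3 kb, and the fourth lay downstream, at 17.1 kb. A Ccn1 start was the nearest protein-coding start for all 4. Each held 1 core match, but that match lay in the central 200 bp only in the downstream peak, 59 bp from the centre. At and beyond the edge of the stretch printed above, that peak also held an AP-1 match and a TEAD match, with 8 bp between them. The peak at -53.3 kb held 3 TEAD matches. At the Ccn1 promoter there was no peak, and the nearest, at -3.19 kb, lay in an intron of the noncoding gene Gm17501.

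Ccn2 (chromosome 10, 24595442 to 24598683, plus strand, 3.24 kb) had 6 peaks, against 2.44 given by an even spread over its long span. The promoter peak of 671 bp (24595428 to 24596098) covered the 5′ end but began just upstream of it, so that almost all of it lay inside the gene. Its centre lay 321 bp downstream of the 5′ end, in a coding exon and -17 bp from an internal start at 24595780. GC content was 68%. This peak held no match to any of the 3 kinds of letters, and few of its bases lay upstream of the 5′ end. The nearby peak of 301 bp at 4.55 kb, downstream of the gene end, held GTGGGAA 39 bp from its centre and also lay in the span of Enpp1. The 4 other peaks were centred at -324 kb, -199 kb, -149 kb and 103 kb, and each of them also lay in the span of Moxd1 or Enpp1. That at -324 kb lay in an intron of Moxd1 and that at 103 kb in an intron of Enpp1. The peak at -149 kb, in AT-rich sequence (GC content 34%), held 3 TEAD and 3 AP-1 matches, of which 1 of each lay in the central 200 bp with 19 bp between them.

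**Figure D2:**
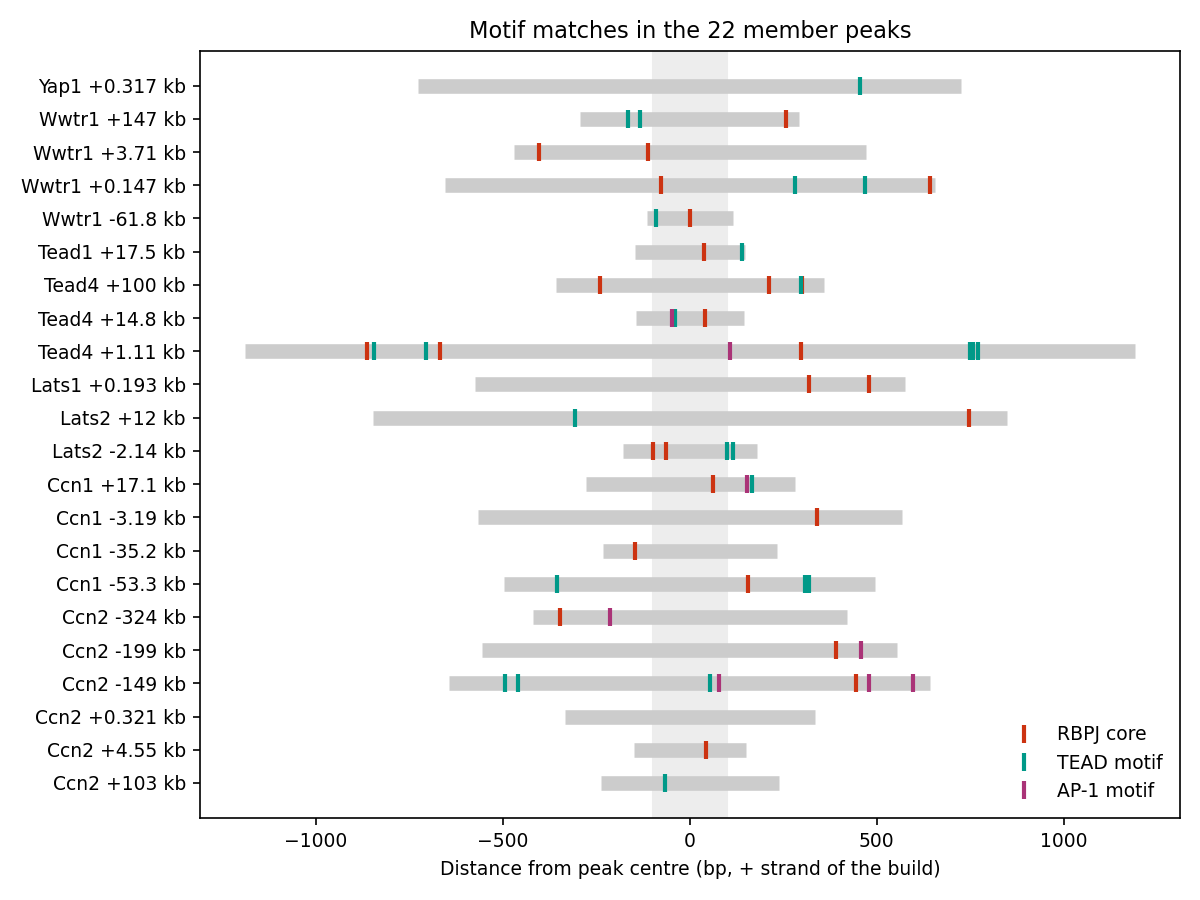
Matches to the RBPJ core (red), TEAD (green) and AP-1 (purple) letters in the 22 peaks, 1 row per peak, labelled with its gene and the distance from the 5′ end. The horizontal axis is the distance from the peak centre in bp on the plus strand of the build, grey bars are the peak intervals and the shaded band is the central 200 bp. Red marks fall in the band in 7 rows, and the Ccn2 row at 0.321 kb has no mark.

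Most of the peaks could be given to more than 1 gene by the same rule. Of the 22, 17 also lay in the body or domain of another protein-coding gene (60.8% of all 11094 peaks did), and 5 did not. The latter were the promoter peaks of Yap1, Wwtr1 and Ccn2, the upstream peak of Lats2 and the Ccn1 peak at -3.19 kb, although the last lay in the noncoding gene Gm17501 and that of Ccn2 in the noncoding gene Gm15270. The nearest protein-coding start was that of the assigned gene for 16 peaks and that of another gene for 6. By position, 9 peaks lay in the gene body and 13 outside it.

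The core letters TGGGAA were present in 7 of the 22 central windows of 200 bp (31.8%), against 25.8% of all peaks (2862 of 11094, interval 25 to 26.6%). The 7 were the peaks whose sequences are printed above and the promoter peak of Wwtr1. A single peak makes up 4.55% of the 22, so that these shares lay less than 2 peaks apart. Within 1 kb of a start, 1 of 5 peaks held the core against 16.2% of all such peaks, and farther away 6 of 17 did (35.3%) against 35.2%. Larger differences were seen with width in both sets. Among peaks under 500 bp wide, 5 of the 7 at these genes and 41.1% of all had the core in the central window, and among wider peaks 2 of 15 (13.3%) and 17.1%. The 3 peaks of at most 300 bp, at Wwtr1, Tead1 and Tead4, all had it, compared with 48.4% of all peaks of that width.

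Over the whole interval, TGGGAA occurred in 19 of the 22 peaks (86.4%) and in 64.9% of all peaks. The 3 without it were the Yap1 peak and the Ccn2 peaks at 0.321 kb and 103 kb. The longer form GTGGGAA, which contains TGGGAA, was found in 4 of the central windows (18.2%), at Tead1, Tead4, Lats2 and Ccn2, against 9.28% of all peaks. A match of this kind describes the sequence and does not show that RBPJ was bound through it.

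The TEAD letters GGAATG occurred in 4 of the 22 central windows (18.2%) and in 11.9% of those of all peaks. These were the upstream peak of Wwtr1, the narrow intron peak of Tead4 and the Ccn2 peaks at -149 kb and 103 kb. The direction of this difference depended on the window, since the shares were 4.55% and 6.38% in the central 100 bp and 63.6% (14 of 22) and 39.4% in whole intervals. RBPJ and TEAD letters were found together in the central window of 2 peaks, at Wwtr1 and Tead4, and of 4.76% of all peaks (528). TGANTCA was found in 2 of the 22 (9.09%), at Tead4 and Ccn2, and in 10.4% of all. GGAATG and TGGGAA can overlap, as they did in the Tead4 peak at 100 kb.

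The promoter table of RefSeq held 11 promoters of 7 of the genes, from 250 bases before to 50 bases after the start. GGAATG was found in 7 of the 11, at Yap1, Wwtr1, Tead3, Lats2 and Ccn1, and in 14.7% of all 32851 promoters. Both promoters of Wwtr1 overlap and carry the same match, and the 3 of Tead3, of which 2 held GGAATG, overlap with their neighbours, so that these promoters are not separate observations. TGGGAA was found in 3 of the 11, at Tead2 and Tead3, and in 25.6% of all promoters. Every RefSeq promoter of Yap1, Wwtr1 and Lats1 and 1 of the 2 of Lats2 lay completely inside a peak, and none of these 5 promoters held TGGGAA. Ccn2, Tead1 and Tead4 were not in the table.

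Widths at these genes ran from 231 to 2382 bp, with a median of 781 bp (quartiles 467.5 and 1148 bp), against 690 bp for all peaks (quartiles 382 and 1419 bp). The 5 promoter peaks had a median of 1312 bp, compared with 829 bp for all peaks within 1 kb of a start. Since the study merged peaks within 2 kb, a wide interval may hold more than 1 site, and its centre need not be the bound position.

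**Figure D3:**
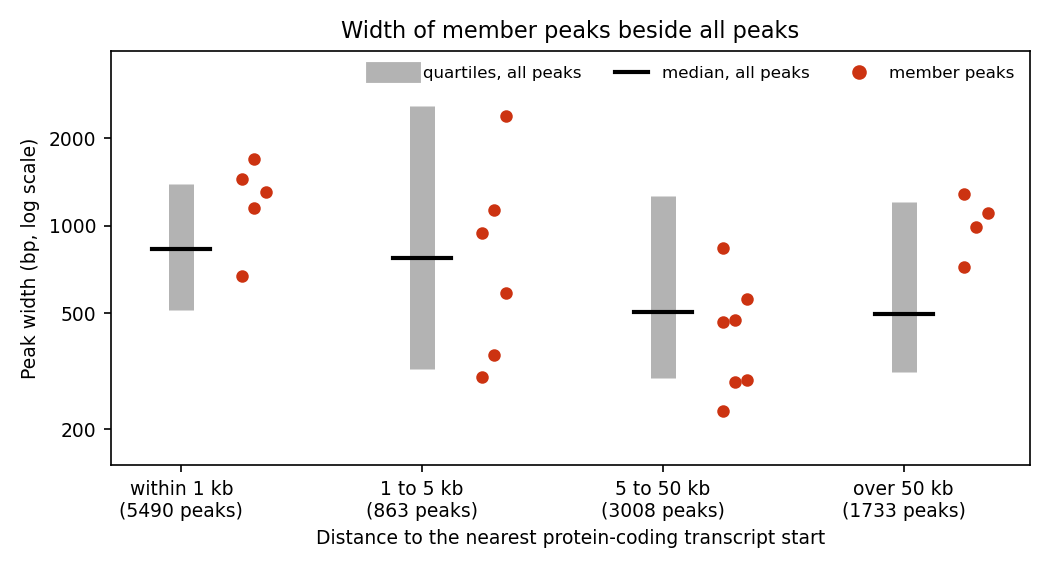
Width of the 22 peaks (red points) beside all peaks by distance to the nearest protein-coding transcript start. The vertical axis is the width in bp on a log scale, grey bars run from the lower to the upper quartile of all peaks and black lines are their medians. Of the 5 points within 1 kb, 4 lie above the median of 829 bp.

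The other genes of the pathway were taken from a list of 28 made from general knowledge. Of these, 25 had a peak (89.3%) and 19 had a promoter peak (67.9%), against 46.7% and 27.6% of all genes. Among the kinases upstream of LATS, promoter peaks were found at Stk3 and Stk4 (MST2 and MST1), Taok2, Taok3 and Map4k4, and the LATS-related kinase genes Stk38 and Stk38l also had one. Their adaptors Sav1, Mob1a and Mob1b had 1 peak each, at the promoter. Among upstream regulators, Nf2 (Merlin), Wwc1 (Kibra), Frmd6 and the atypical cadherin gene Fat4 had a promoter peak. The list also held 8 genes for inhibitors of YAP (the angiomotins and Ptpn14) and for TEAD cofactors of the Vgll family. Peaks numbered 7 at Amotl2, 6 at Ptpn14, 6 at Vgll4 and 4 at Amotl1, but 1 each at Amot, Vgll2 and Vgll3 and 0 at Vgll1, and Amot, Vgll1 and Vgll2 had no promoter peak. Besides Vgll1 on chromosome X, Wtip and Dchs1 on chromosome 7 had no peak. At Stk3, Stk38 and Amotl1 the promoter peak counted only through a start other than the 5′ end. The peak nearest to the 5′ end lay at 22.5, 25.2 and 3.12 kb from it.

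Among 20 further target and CCN family genes, 14 had a peak (70%) and 8 a promoter peak (40%), against 46.7% and 27.6% of all genes. With the basal domain alone, 5 of the 20 had a peak and 27.1% of all genes did, so that the higher share of this list was not seen under that rule. Crim1 had 8 peaks, Dlc1 and Tgfb2 5 each, Igfbp3 4, Ccn4, Gadd45a and Asap1 3 each and Rbms3 2, with a promoter peak at each of the 8. At Crim1, Dlc1 and Rbms3 the promoter peak counted only through a start other than the 5′ end. The peak nearest to the 5′ end lay at 6.37, -9.04 and 379 kb from it. No peak was found at Ccn6, Ankrd1, Axl, Arhgef17, F3 and Fjx1, of which Axl and Arhgef17 lie on chromosome 7. Ankrd1, another standard readout of YAP activity, had its nearest peak at -290 kb. The median span of this list was 312 kb, against 170 kb for the 10 genes, 185 kb for the pathway list and 93.8 kb for all genes, and the part of span in these shares was not tested.

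**Figure D4:**
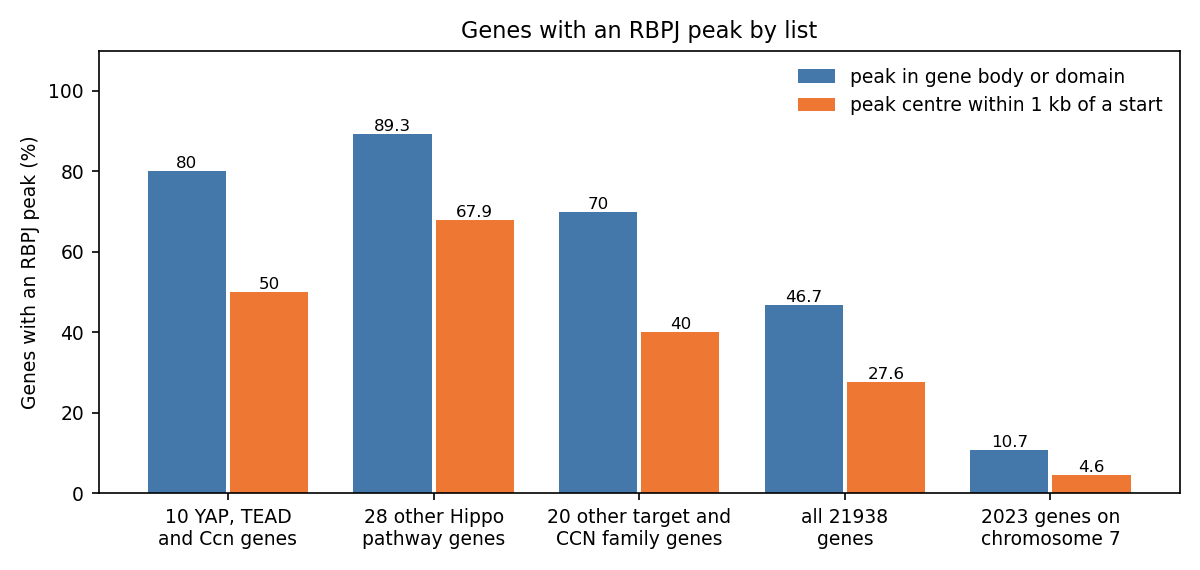
Share of genes with an RBPJ peak in the gene body or domain (blue) and with a peak centre within 1 kb of a transcript start (orange), in percent, for the 10 YAP, TEAD and Ccn genes, 28 other Hippo pathway genes, 20 other target and CCN family genes, all 21938 genes and the 2023 genes on chromosome 7. Bars start at 0 and carry no error bars, since each is a count from 1 list. Blue bars stand at 80, 89.3 and 70% for the lists, 46.7% for all genes and 10.7% for chromosome 7.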

How the data were processed

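According to the study's methods, bowtie was used by the authors for alignment to GRCm38 (reads matching at more than 3 positions were left out), followed by removal of duplicates. Peaks from MACS2 and PeakRanger were joined within 2 kb, kept where 3 or more calls overlapped among methods and replicates, and filtered for ENCODE blacklisted regions. The other deposited values, besides chromosome names, are start and end positions in bp, read here as counted from 1. Peak strength is not given, and joining widens intervals.

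Genes were those of GENCODE M21 (54409 distinct starts, with the gene 5′ end where no protein-coding transcript was listed). Names of chromosomes were the same as in the GRCm38.p6 sequence, and 0 peaks exceeded a chromosome's length. The number from an even spread is the peaks per base of the chromosome times the span of the gene. Peak assignment and motif search were tested on simulated data. The software was Python 3.11.15 with pandas 2.3.3, numpy 2.4.6, pysam 0.24.0, scipy 1.17.1 and matplotlib 3.10.9.

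The 10 genes and both further lists were chosen with earlier results of these data known. The text names all 10, of the other lists the genes with a promoter peak and those without any peak, and neighbouring genes where they share a peak. Rpl13a, Rpl10a, Amot, Vgll2 and noncoding genes were chosen for naming once their values were known. Alternatives covered the domain, the peak position, the set of starts, the distance limit, the window, the letters and a minimum width of 500 bp.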

Additional observations from a re-analysis of the deposited data

How the results depend on the processing

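No paired analysis was possible because the result comes from 1 list and no test. Leaving out either RBPJ replicate left 11094 to 11094 peaks, 8 to 8 of the 10 genes, 25 to 25 of the 28 pathway genes, 14 to 14 of the 20 target genes, 10254 to 10254 of all genes and 22 to 22 peaks at the 10 genes, since the copies are identical. Apart from these and the overlap of the copies, whose outcome was fixed, 43 values under alternatives stayed within 1.5 times the main count or within its counting interval and 21 moved. Peaks of at least 500 bp numbered 7072. The basal domain alone gave 6 peaks at the 10 genes, 5 of 20 target genes and 5946 genes in all (27.1%), and the gene body alone gave 9 peaks, 9 of 20 target genes and 5518 genes (25.2%). Over the alternatives, the number of the 10 genes with a peak ran from 6 (basal domain) to 9 (any overlap) and with a promoter peak from 4 (single 5′ end, without Lats2) to 7 (within 5 kb, with Tead4 and Ccn1). TGGGAA was found in 86.4% of the 22 peaks over the whole interval and in 13.3% of those of at least 500 bp. Over all peaks it was found in 15.4% of the central 100 bp, in 64.9% of whole intervals and in 17.1% of the peaks of at least 500 bp, while GTGGGAA was found in 9.28% and TGAGAA, another form of the RBPJ letters, in 14.4%. At the 22 peaks, these were found in 18.2% and 31.8%. With the central 100 bp and the whole interval, an alternative chosen after seeing the data, GGAATG was found in 4.55 and 63.6% of the 22 peaks and 6.38 and 39.4% of all, so that the order of both shares turned in the smaller window, and TGANTCA in 0 and 27.3% of the 22 and 5.69 and 30.7% of all. The cause of these moves was not tested, other than that smaller windows and domains hold fewer matches and peaks by construction. Scores are missing from the list, so a selection by score was not run and width took its place. The unknown depth limits what the lack of a peak at Tead2 and Tead3 can show.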
